A study of Mus musculus with 8 samples.

Results

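The genes described here are the IL-17 cytokines and the IL-17 receptor chains, namely Il17a, Il17f, Il17ra, Il17rb, Il17rc, Il17rd and Il17re, in mouse Th17 cells. They were chosen by symbol. All 7 were found among the 22829 genes of the expression table, and all 7 had a mean of at least 10 normalized counts over the 8 samples, so none was set aside as low. Il17rc, at a mean of 15.7, lay nearest to that limit and no member lay under it. That mean over all samples is the measured value used in the choice. The higher level of Il17a and Il17f in K187R-ROR-γt cells was also known when the genes were chosen, so it is given here as a description.

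RNA seq was performed on Th17 cells differentiated in culture from the CD4+ T cells of ROR-γt-/- mice. All samples lack endogenous ROR-γt. One group of 4 samples was reconstituted by lentivirus with WT-ROR-γt (WT), and the other group of 4 with K187R-ROR-γt (K187R), a mutant that cannot be SUMOylated at this lysine. The ROR-γt in these cells was therefore made from a lentiviral construct, and neither the copy number nor the share of transduced cells is given. The ROR-γt-/- line was obtained from Jackson Laboratory. The age of the mice is not given for these samples, and the labels do not say which samples came from separate mice. P-values measure the spread between these samples, part of which may be technical.

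IL-17A and IL-17F are cytokines of Th17 cells and act on epithelial cells, fibroblasts and other cells that carry their receptor. IL-17RA is the common chain of the family and pairs with IL-17RC to bind IL-17A and IL-17F, with IL-17RB to bind IL-25, and with IL-17RE to bind IL-17C. IL-17RD is a further member that can associate with IL-17RA, and the receptors signal through the adaptor Act1, encoded by Traf3ip2. ROR-γt is the transcription factor that drives Il17a and Il17f and binds the ROR half-site AGGTCA.

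Il17a lies on chromosome 1 of GRCm38 at chr1:20730905-20734496 on the plus strand, and Il17f at chr1:20777146-20790617 on the minus strand. Their 3′ ends face each other across 42.6 kb. Il17re, at chr6:113458484-113470758, and Il17rc, at chr6:113471427-113483140, follow each other on the plus strand with 668 bases between them. Il17ra lies on the same chromosome at chr6:120463247-120487559 on the plus strand. Il17rd, at chr14:27038941-27107286 on the plus strand, and Il17rb, at chr14:29996135-30008896 on the minus strand, share chromosome 14.

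The RefSeq promoter windows, 250 bases before to 50 bases after the annotated start in GRCm38.p6, are shown for Il17a and Il17f because they are the targets of the transduced factor, and for Il17re because it is the member whose groups did not overlap. Capitals mark the letters AGGTCA on either strand. The windows are chr1:20730655-20730954 (plus strand) for Il17a, chr1:20784221-20784520 (minus strand) for Il17f and chr6:113458521-113458820 (plus strand) for Il17re. For Il17f and Il17re the start used by RefSeq is not the outermost end of the gene in the GENCODE annotation. Both of these windows lie within the gene as annotated there.
Il17a: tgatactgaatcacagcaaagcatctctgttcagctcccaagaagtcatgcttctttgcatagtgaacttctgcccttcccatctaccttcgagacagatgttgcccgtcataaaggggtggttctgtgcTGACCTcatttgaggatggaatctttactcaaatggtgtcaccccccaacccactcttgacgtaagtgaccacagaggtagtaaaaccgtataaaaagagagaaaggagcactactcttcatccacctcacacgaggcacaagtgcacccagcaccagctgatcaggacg
Il17f: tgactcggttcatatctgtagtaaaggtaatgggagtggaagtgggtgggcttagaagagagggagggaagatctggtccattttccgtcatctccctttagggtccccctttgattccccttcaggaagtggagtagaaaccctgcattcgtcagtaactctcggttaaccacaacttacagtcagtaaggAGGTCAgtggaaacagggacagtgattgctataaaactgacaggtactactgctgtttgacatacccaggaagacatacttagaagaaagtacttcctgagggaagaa
Il17re: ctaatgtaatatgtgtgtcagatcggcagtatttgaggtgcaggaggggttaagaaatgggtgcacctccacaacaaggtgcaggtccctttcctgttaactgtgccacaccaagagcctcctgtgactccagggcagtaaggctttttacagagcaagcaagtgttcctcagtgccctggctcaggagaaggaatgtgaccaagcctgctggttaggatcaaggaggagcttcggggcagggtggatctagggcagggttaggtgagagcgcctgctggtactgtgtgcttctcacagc

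Promoter windows were found for 6 of the 7 members. AGGTCA was searched on both strands, and was present in 16.3% of 32851 mouse promoter windows of the same length. Il17a had 1 match, on the minus strand at -120 relative to the start, and Il17f had 1, on the plus strand at -58. No match was found in the windows of Il17rb, Il17rc, Il17rd or Il17re. The AP-1 element TGANTCA, present in 7.81% of windows, was found in that of Il17a at -244 and in that of Il17rb at -104. The STAT element TTCNNNGAA, present in 8.30% of windows, was found in none of the 6. A match describes the letters of the window and was not tested for binding.

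The files hold 52456804 to 74676721 reads counted on genes per sample, and 3 reads correspond to 2.54 to 3.56 normalized counts. T-cell markers were high in all samples, with a summed level of 10 genes from 186875 to 230961 normalized counts. Markers of other cells were also present. The summed level of 7 myeloid genes ranged from 20945 to 64025 in WT and from 35867 to 67466 in K187R, and Lyz2 alone from 17025 to 57778, although CD4+ cells had been purified with magnetic beads. The summed levels of B-cell markers (301 to 1596), gamma delta T-cell markers (1032 to 1526), CD8 markers (387 to 1141) and epithelial and fibroblast markers (1038 to 1836) were lower and overlapped between the groups. Of the epithelial and fibroblast markers, Epcam had a mean of 1401 over the 8 samples, against 1.69 (Pdgfra) to 61.8 (Col1a1) for the others measured. Among the gamma delta markers, Tcrg-C1 ranged from 139 to 164 in WT and from 168 to 275 in K187R. Its groups thus did not overlap, as for 2.46% of all genes tested, whereas Trdc, Trdv4 and Sox13 overlapped. In bulk RNA, fewer cells of a type and less RNA per cell cannot be told apart. The part of other cells in the values below was not tested.

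The samples were divided into 3 sets by clustering, and these sets cut across the groups. The number of sets was chosen beforehand and was not found from the data. The clustering left out the members, the activators and repressors of the Il17a and Il17f locus given below, and genes averaging under 10 normalized counts. Set 1 held WT replicates 1 and 3 and K187R replicate 1, set 2 held WT replicate 2 and K187R replicates 2 and 3, and set 3 held both replicates 4. The samples of set 2 had Xist at 13564 to 17373 normalized counts and the other 5 at 3.56 to 23.7. Differences between K187R and WT are therefore also given within sets.

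Il17a was at 2861, 4653, 2676 and 2087 normalized counts in WT replicates 1 to 4 and at 4696, 6075, 5771 and 3528 in K187R. Il17f was at 14328, 22033, 13794 and 10238 in WT and at 20615, 24917, 23853 and 16593 in K187R. For both cytokines WT replicate 2 was above K187R replicate 4, so the groups overlapped. The difference of K187R minus WT was 0.74 on the log2(normalized count + 1) scale for Il17a (95% interval 0.19 to 1.29) and 0.55 for Il17f (0.06 to 1.03). Adjusted p was 0.921 for both from limma. From DESeq2 it was 0.351 for Il17a and 0.683 for Il17f, so neither was past the threshold. Within sets the difference was smallest in set 2, at 0.35 for Il17a and 0.15 for Il17f.

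**Figure D1:**
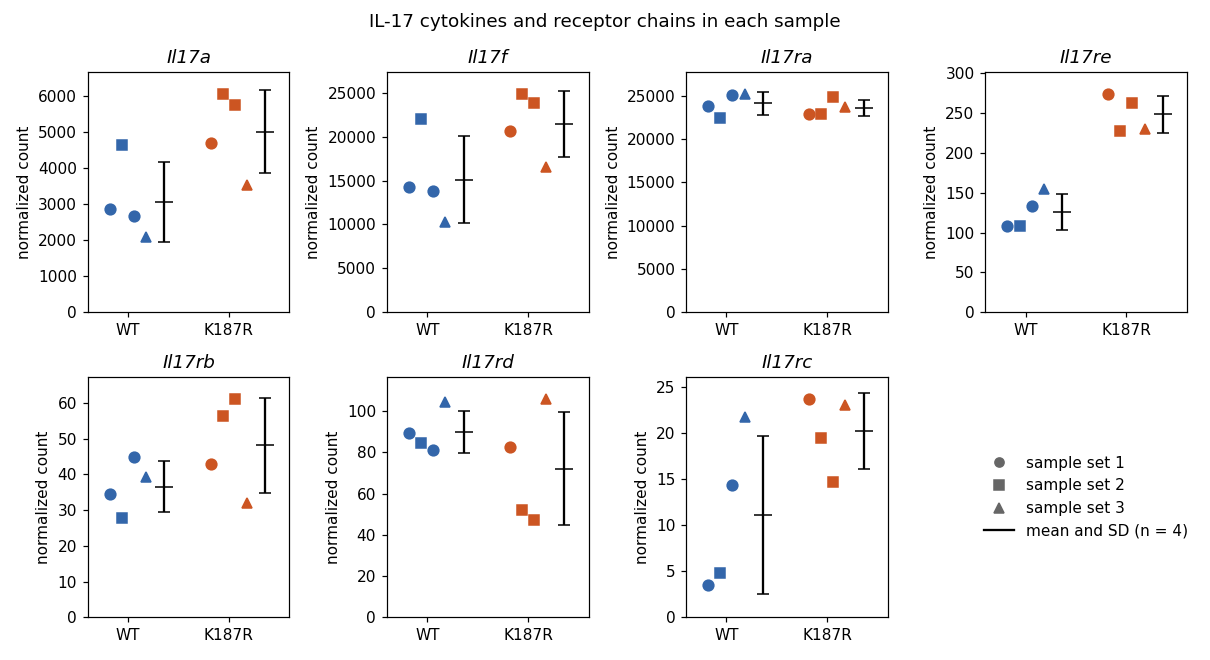
Normalized counts of the 7 genes in each sample of WT (blue) and K187R (orange), on axes that start at 0. Point shapes give the 3 sample sets, and the bar beside each group gives the mean and SD of 4 samples. The groups are apart for Il17re, where WT reached 155 and K187R began at 228, and overlap for the other 6 genes.

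The levels of both cytokine genes varied together from sample to sample. Over the 8 samples the log2 levels of Il17a and Il17f had a Pearson r of 0.992, the highest of Il17a with any of 16981 genes, and r was 0.990 over 6 samples when the 2 farthest from the median were left out. The samples share their groups and sets, so r is given as a description. The next genes by this measure were Dock5 (0.987), Sephs2 (0.984), Cadm3 (0.982) and Sh2d4a (0.980). Dock5 encodes a guanine nucleotide exchange factor and Sephs2 a selenophosphate synthetase. Dock5 ranged from 1669 to 2185 normalized counts over the 8 samples, whereas Cadm3 ranged from 8.71 to 67.4. Of the receptor chains, Il17re had an r of 0.55 with Il17a, Il17rb 0.43, Il17rc 0.07, Il17ra -0.61 and Il17rd -0.77. Without the same 2 samples these were 0.54, 0.70, 0.47, -0.14 and -0.82, so the values of Il17rb, Il17rc and Il17ra rest in part on those samples.

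Levels per length, in normalized counts per kb of annotated exon, placed Il17f first at 9049 ± 2630 (SD, n = 8) and Il17a second at 3453 ± 1261. Per length, Il17f was 2.90, 2.74, 2.99 and 2.84 times as high as Il17a in WT replicates 1 to 4, and 2.54, 2.38, 2.39 and 2.72 times as high in K187R. All 4 K187R samples were thus below all 4 WT samples, with the closest pair at 2.74 and 2.72. WT samples had a mean log2 ratio of 1.52 ± 0.05 and K187R samples of 1.32 ± 0.09 (SD, n = 4 each). These differ by -0.19, with p = 0.0286 in an exact two-sided permutation test, the smallest that 4 samples against 4 allow. This is not independent of the known difference in both genes. The ratio was lowest in K187R replicates 2 and 3, which had the highest Il17a. The size of the ratio depends on the length used, since Il17f has 2022 annotated exon bases but a longest transcript of 1178, against 1171 for Il17a. With the longest transcript as length it was 4.71 to 5.12 in WT and 4.08 to 4.68 in K187R, and the difference between the groups on the log2 scale does not change with the length. It does not depend on the size factor either, and the longest stretch that Il17a and Il17f transcripts share is 11 bases, against reads of 75 bases.

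**Figure D2:**
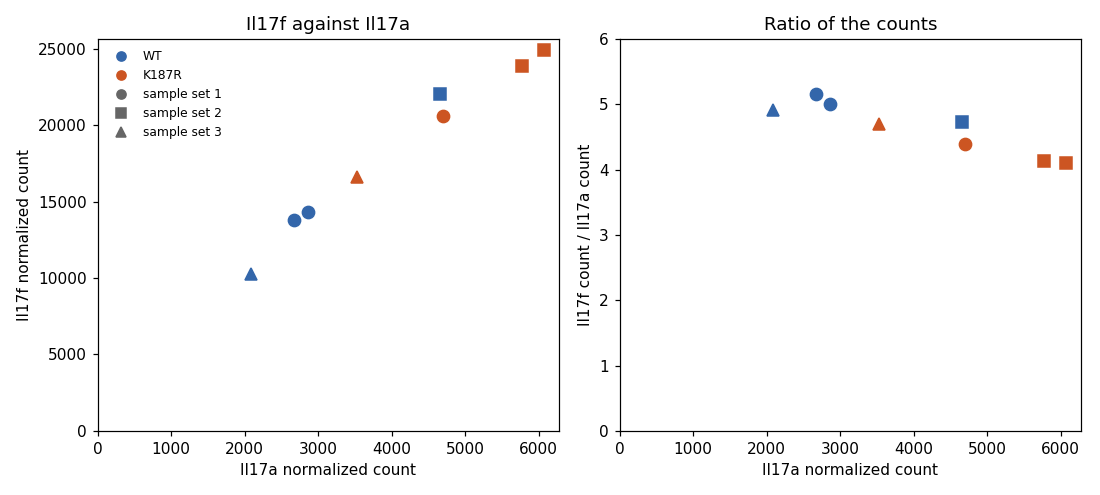
Left, normalized counts of Il17f against Il17a in each sample, with axes that start at 0. Right, the Il17f count divided by the Il17a count against the Il17a count, with shapes for the sample sets. The 4 WT samples have count ratios of 4.74 to 5.16 and the 4 K187R samples 4.10 to 4.70.

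The other ligands of the family were near or under the detection floor. Il17c had 0 to 3 reads and Il17d 0 to 4 reads in a sample, and their means were 1.93 and 1.41 normalized counts per kb, which at these reads do not order them. Il17b and Il25 were looked up by symbol and were not found among the 22829 genes. None of these could be tested.

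Next to the cytokine pair, the neighbours given here showed no difference past the limma threshold. By limma 0 of the 16982 genes tested passed it, so this does not set the neighbours apart from Il17a and Il17f. Mcm3, a subunit of the replicative helicase, lies 12.4 kb beyond Il17f and had a mean of 9178 ± 2019 (SD, n = 4) normalized counts in WT and 9211 ± 1410 in K187R. Its log2 difference was 0.02 (SE 0.174, adjusted p = 0.992 from limma). Paqr8, the next gene, differed by 0.16 (adjusted p = 0.921 from limma). On the Il17a side, Pkhd1 (112.8 kb) had 3.38 to 10.2 normalized counts, and the next genes in the table, Jph1 and Ly96, lie 3633 and 4021 kb away. Jph1 had at most 4.52 normalized counts, and Ly96 differed by -0.02 (adjusted p = 0.992 from limma).

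The receptor chains differed widely in level. Il17ra, the common chain, had 23858, 22393, 25117 and 25245 normalized counts in WT replicates 1 to 4 and 22883, 22843, 24818 and 23751 in K187R. It was the steadiest member, with a coefficient of variation of 4.64% over the 8 samples against 26.5% to 50.5% for the other 6. Per length it stood at 2755 ± 128 (SD, n = 8) normalized counts per kb, above 94.0% of the 16958 genes tested that had a length. Il17f was above 98.7% and Il17a above 95.5% of them. Genes that averaged under 10 normalized counts are not among these 16958, so the shares are not those of all genes listed.

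The partner chains were all low. Il17re was at 32.0 ± 11.7 (SD, n = 8) normalized counts per kb, above 22.2% of the same 16958 genes, and Il17rb at 11.4 ± 3.13, above 11.02%. Il17rd was at 7.36 ± 1.95, above 7.10%, and Il17rc at 5.88 ± 2.97, above 5.36%. Of the counts on the 5 receptor chains, 98.2% to 99.0% in a sample were on Il17ra.

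**Figure D3:**
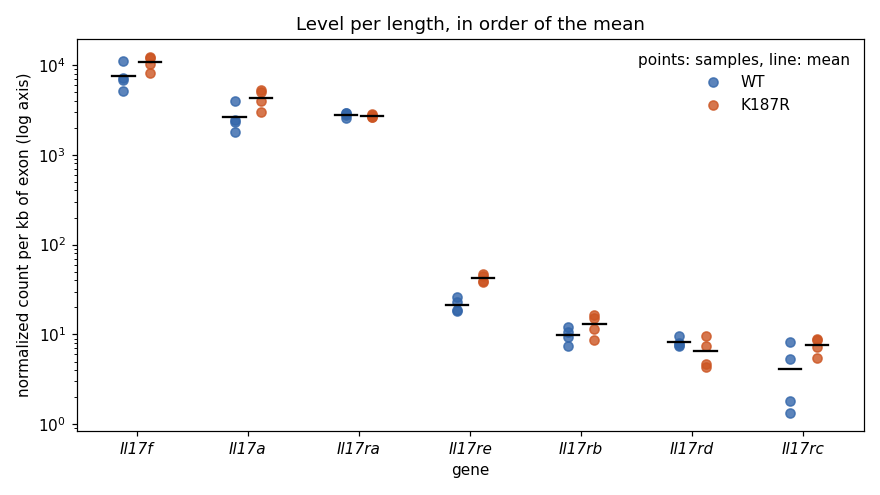
Normalized counts per kb of exon for each gene on a log axis, ordered by the mean over 8 samples, with 1 point per sample and a line at each group's mean. Il17f, Il17a and Il17ra lie above 1000 in all samples, and the 4 partner chains below 50.

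In this order, Il17ra exceeded Il17re by 6.51 on the log2 scale per kb (91.2-fold; higher in 8 of 8 samples; p = 0.00781 in an exact two-sided sign-flip test, the smallest that 8 samples allow). The fold was 51.1 with the longest transcript as length and 38.5 with the mean coding transcript, in place of all annotated exon bases. Il17re exceeded Il17rb by 1.41 (2.66-fold; 8 of 8 samples; exact sign-flip p = 0.00781). Il17rb exceeded Il17rd by 0.66 (6 of 8 samples; exact sign-flip p = 0.0313), and this step was lost with the mean coding transcript as length and on leaving out any 1 of 6 of the 8 samples. Il17rd and Il17rc could not be ordered, with a difference of 0.42 (5 of 8 samples; exact sign-flip p = 0.391).

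Il17rc, the partner of Il17ra for IL-17A and IL-17F, was at 3.56, 4.81, 14.4 and 21.8 normalized counts in WT replicates 1 to 4 and at 23.7, 19.5, 14.7 and 23.1 in K187R. These values rest on 3 to 26 reads, and the 3 reads of WT replicate 1 have an exact 95% Poisson interval of 0.62 to 8.77 reads, counting error only. WT replicates 1 and 2 were below all others, while WT replicates 3 and 4 lay near or within the K187R range, so the groups overlapped. Per length, Il17ra was 2064, 1436, 539 and 357 times as high as Il17rc in WT and 297, 361, 519 and 317 times in K187R. With 1 normalized count added to each gene, which lowers the ratio where Il17rc is lowest, the log2 ratio per kb averaged 9.57 ± 1.04 for WT and 8.44 ± 0.34 for K187R (SD, n = 4 each), a difference of -1.13 (exact permutation p = 0.0857), which was not past the threshold.

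Il17re, the partner for IL-17C, was at 108, 109, 134 and 155 normalized counts in WT replicates 1 to 4 and at 275, 228, 262 and 230 in K187R. The lowest K187R sample was above the highest WT sample. The means were 126.4 ± 22.6 and 248.7 ± 23.3 (SD, n = 4 each), a 1.97-fold ratio, on 91 to 259 reads per sample. The difference was 0.98 on the log2 scale (SE 0.163, 95% interval 0.62 to 1.35). Set 1 gave 1.18, set 2 gave 1.16 and set 3 gave 0.57.

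After adjustment over all genes, the call on Il17re depended on the tool. Limma gave an adjusted p of 0.344 and edgeR 0.429, whereas DESeq2 gave 7.56e-05, at a log2 difference of 0.97. An exact permutation of the sample labels gave p = 0.0286, the smallest possible here. Of the 7 members, 1 had groups that did not overlap, beside 2.46% of the 16982 genes tested. By limma adjusted p, 0 members passed, beside 0% of all genes. At an unadjusted limma p under 0.05 there were 3 members (Il17a, Il17f and Il17re), beside 4.39% of all genes. DESeq2 called 1 member, beside 0.227% of the 13682 genes to which it gave an adjusted p. Il17re ranked 8 among all genes by limma p and 8 by DESeq2.

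**Figure D4:**
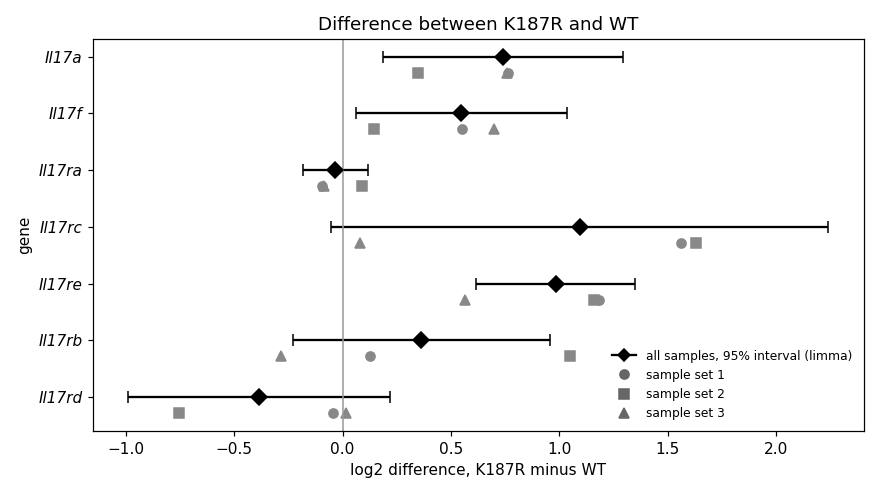
Log2 difference of K187R minus WT for each gene. Diamonds and bars give the limma estimate over 8 samples and its 95% interval, and grey shapes below give the difference within each sample set. The interval of Il17re runs from 0.62 to 1.35 and all 3 sets lie above 0, whereas for Il17rb and Il17rd the largest differences, 1.05 and -0.76, came from set 2.

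The other receptor chains were not past the threshold. Il17ra differed by -0.03 (95% interval -0.18 to 0.12, adjusted p = 0.955 from limma), the narrowest interval of the members. Il17rc differed by 1.09 (-0.06 to 2.24, adjusted p = 0.921 from limma), and this value was 0.73 without WT replicate 1 and 1.499 without WT replicate 4.

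Il17rb, the partner for IL-25, was at 34.5, 27.9, 44.8 and 39.2 normalized counts in WT replicates 1 to 4 and at 42.9, 56.4, 61.1 and 32.0 in K187R. K187R replicates 2 and 3 were above all other samples and K187R replicate 4 was below most, so the groups overlapped. The difference was 0.36 (95% interval -0.23 to 0.96, adjusted p = 0.921 from limma). In the annotation, 3.80% of its exonic bases overlap Actr8 on the other strand, and whether the counting used strand is not given.

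Il17rd was at 89.1, 84.6, 81.2 and 105 normalized counts in WT replicates 1 to 4 and at 82.5, 52.1, 47.4 and 106 in K187R. K187R replicates 2 and 3 were below all others and K187R replicate 4 was the highest of all. The difference was -0.39 (95% interval -0.99 to 0.22, adjusted p = 0.921 from limma). For both Il17rb and Il17rd the samples that stood apart were the K187R samples with high Xist. WT replicate 2, which also had high Xist, did not go with them. It was the lowest of all samples for Il17rb (27.9) and within the range of the other WT samples for Il17rd (84.6). Without the 3 high-Xist samples the differences were -0.081 for Il17rb and 0.035 for Il17rd, opposite in sign to those over all samples, whereas that of Il17re was 0.94.

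Per kb of annotated exon, the genes that act downstream of the receptors had higher means than the partner chains. Of 27 signalling genes, all 27 were tested and 0 passed by limma, edgeR or DESeq2 or had an unadjusted limma p under 0.05. Their median log2 difference was 0.00, beside -0.01 over all genes tested. Traf3ip2, encoding Act1, had 1472 ± 116 (SD, n = 4) normalized counts in WT and 1612 ± 143 in K187R. Traf6, the ubiquitin ligase that Act1 recruits, had 19473 ± 4759 and 16201 ± 2878. Nfkbiz, encoding the IκBζ protein, had 3298 ± 433 and 3498 ± 602, and Zc3h12a, encoding the RNase Regnase-1, had 2173 ± 164 and 2564 ± 576. Per length, the highest gene of the list was Srsf1, an RNA-binding splicing factor, at 5480 normalized counts per kb. The lowest was Cebpd, a C/EBP transcription factor, at 44.6, which was still above the mean of each partner chain over the 8 samples. Without division by length the order was reversed for Il17re, with mean normalized counts of 167 for Cebpd and 188 for Il17re. The smallest limma p-values in the list were those of Cebpd (log2 difference 0.70, unadjusted p = 0.0767) and Arid5a, an RNA-binding protein (-0.20, unadjusted p = 0.0789).

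Genes that IL-17 is known to induce in responding cells had a median log2 difference of 0.78 over the 13 tested, beside -0.01 over all genes tested, with 0 past the threshold and 0 at an unadjusted limma p under 0.05. Within sets their median was lower, at 0.24 in set 1, 0.17 in set 2 and 0.15 in set 3. Their summed level ranged from 5525 to 49272 normalized counts in WT and from 13214 to 38707 in K187R, so the groups overlapped. Many of them are also made by myeloid cells, whose markers varied between the samples as given above, and their part in these values was not tested.

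Among 18 activators of the Il17a and Il17f locus, 0 passed by limma (0% of all genes tested) and 3 had an unadjusted p under 0.05 (4.39% of all genes), all higher in K187R, namely Il1r1, Il23r and Il6ra. DESeq2 called 1 (0.227% of all genes), Il1r1, the IL-1 receptor chain that promotes Th17 differentiation. Il1r1 ranged from 571 to 872 in WT and from 1227 to 1430 in K187R (log2 difference 0.88, adjusted p = 0.344 from limma and 3.7e-05 from DESeq2), and Il23r from 57.5 to 149 and from 120 to 272 (1.27, adjusted p = 0.921 from limma). Rora differed by -0.06 and Stat3 by -0.12, with adjusted limma p-values of 0.959 and 0.921. Of 13 repressors of the locus, 0 passed by limma or DESeq2 and 0 had an unadjusted limma p under 0.05, beside the same shares.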

How the data were processed

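RNA seq was measured in 4 WT and 4 K187R samples, grouped by the labels. The authors aligned the reads with HISAT2 to GRCm38, counted them per gene with featureCounts on GENCODE and divided the counts by DESeq2 size factors, and deposited this signal, the normalized count. The strand setting and the treatment of reads shared between genes are not given in the sources used here. Each value was a whole number of reads, within 0.001, times what 1 read was worth in its sample, for 100% of values, so depth was recovered. 0 sample columns were left unused.

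limma (lmFit, eBayes with trend) was run on log2(normalized count + 1) for the 16982 genes that averaged 10 or more normalized counts, with Benjamini-Hochberg adjustment and a threshold of 0.05. Adding a larger number shrinks the log2 differences of low genes, and that of Il17rc was 1.15 with 0.5 added and 0.79 with 5. Its main value of 1.09 was still above those of edgeR (0.83) and DESeq2 (0.84). edgeR quasi-likelihood (0 genes called, 729 at an unadjusted p under 0.05) and DESeq2 (31 called) were run on the recovered reads of these genes as alternatives. Single values were tested by exact two-sided permutation. Further alternatives were quantile normalization, a pseudocount of 0.5 or 5, a minimum mean of 50 or none, the replicate number as a block, the sample set as a factor, other transcript lengths, each sample left out, and the 3 samples with Xist over 1000 left out. Running the count tools on the filtered genes was chosen after the data were seen.

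Gene lengths and overlaps came from a later GENCODE release of GRCm38 than the one the paper names for counting. It held 22784 of the 22829 identifiers, and 22140 had the same symbol in both. The text names all members, preset regulators and signalling genes, the extremes of each list per length and by p, the 3 nearest neighbours on each side of the cytokine pair, and the 5 genes most correlated with Il17a. Some genes that this rule takes are not reported here. Il6ra, a locus activator outside that rule, was named after its value was seen, as were Lyz2 and Actr8. The members and lists were chosen with earlier results of these data known. The analysis was tested on simulated data, with planted changes larger than the difference of any member and without sample sets. That test therefore does not show whether differences of the members' size would be found. The fits used limma 3.58.1, DESeq2 1.42.0 and edgeR 4.0.16 in R 4.3.3, and the other steps pandas 2.3.3, scipy 1.17.1 and numpy 2.4.6 in Python 3.11.15, with matplotlib 3.10.9 for the plots.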

Additional observations from a re-analysis of the deposited data

How the results depend on the processing

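The log2 differences of Il17a, Il17f, Il17ra, Il17rc and Il17re kept their direction under every alternative run. That of Il17re ranged from 0.86 to 1.09 (0.91 to 1.09 with 1 sample left out), its lowest adjusted limma p was 0.121, with the sample set as a factor, and it passed with DESeq2 alone (0.97). Without the high-Xist samples, Il17rb was at -0.081 and Il17rd at 0.035, the reverse of the values over all samples. Over all genes, 0 passed by limma, 1 with the sample set as a factor and 31 by DESeq2, and 0 to 4 with 1 sample left out, 4 of them without WT replicate 4. The cause was not tested.

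The lower Il17f to Il17a ratio of K187R was -0.23 to -0.17 with 1 sample left out and -0.14 without the high-Xist samples (exact permutation p = 0.1, the smallest for 3 against 2). The exact permutation p was 0.0571 without any single WT sample and 0.0286 without any single K187R sample. In each of these runs the groups still did not overlap. The 2 values differ in how many label arrangements were as extreme, and do not show that the result rests on the WT samples. The Il17ra to Il17rc ratio differed by -1.51 to -0.77 with 1 sample left out, and passed without WT replicate 4 (exact permutation p = 0.0286). The step from Il17rb to Il17rd was 0.10 with the mean coding transcript as length and 0.47 to 0.77 with 1 sample left out.

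Samples with the same replicate number deviated together for numbers 1, 2 and 4 (correlations of 0.59, 0.66 and 0.63), which also fell in the same set, but not for number 3 (-0.09), so the numbers were not taken as pairs throughout. With the replicate number as a block, limma called 0 genes, 2046 had an unadjusted p under 0.05 and no member passed (Il17re: adjusted p = 0.318). In 4 of 4 pairs Il17re was higher in K187R, which any pairing would give, since its groups did not overlap. Il17a, Il17f and Il17rc were also higher in 4 of 4 pairs. The share of all genes with this count is not given here. The Il17f to Il17a ratio differed by -0.19 under this pairing (exact sign-flip p = 0.125, the smallest for 4 pairs).

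Depth limits Il17rc most, at 3 to 26 reads.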
